A study of Mus musculus with 16 samples.

Results

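The myosin light chain kinase genes Mylk, Mylk2, Mylk3 and Mylk4 and the myosin phosphatase genes Ppp1cb, Ppp1r12a and Ppp1r12b were taken from the count table by matching Ensembl gene IDs to these symbols. All 7 were found among the 22468 genes of the table, and 6 of them had enough reads to enter the fitted comparisons. The kinases, when bound by calcium and calmodulin, add phosphate to the regulatory light chain of myosin, and the phosphatase takes it off again. In smooth muscle this cycle switches contraction on and off, whereas in the heart the phosphorylated light chain adjusts the force and calcium sensitivity of the beat. The phosphatase is a complex of a catalytic subunit, Ppp1cb, and a targeting subunit that holds it on myosin, encoded by Ppp1r12a or Ppp1r12b, and the kinase ROCK, activated by RhoA, inhibits it.

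Messenger RNA was measured by RNA sequencing in whole ventricles of neonatal mice, which included tissue above and below the ligature. Both genotypes, Chrna7 knockout (Jax #003232) and wild type, were sampled after surgical myocardial infarction (MI) and after a sham operation. Chrna7 encodes the alpha 7 subunit of the nicotinic acetylcholine receptor. The 4 groups were KO MI, KO sham, WT MI and WT sham, with 4 samples each. The labels used here give no age at collection, sex, litter or wild-type strain, and do not say whether each sample is a separate animal, so every p-value measures only the spread between these samples. A ventricle holds many cell types, so fewer cells of a type and less RNA per cell cannot be told apart.

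The libraries held 10711442 to 17223580 reads assigned to genes, and Chrna7 had 0 to 4 reads in every library, too few to check the genotype labels. The 4 KO sham libraries stood apart on the first principal component of all genes, which carried 25.5% of the variance, with scores of 27.88 to 31.59, while the highest score among the other libraries was 0.97. They also had the most positive slopes of level on transcript length, 0.0879 to 0.1405 log2 units per doubling of length, against -0.1284 to 0.0435 in the other libraries. KO MI sample 4 differed most from the samples of its group, with a chi-square per degree of freedom of 57.8 to 70, against 3.87 to 21.7 for every other pair within a group. KO MI sample 1, KO sham sample 2 and WT sham sample 1 had almost no Y-linked reads, at 1.73 to 2.74 CPM, against 152 to 231 CPM in the others. Cardiomyocyte markers dominated every library. Of 12 skeletal muscle markers, Ckm, which heart also expresses, made up nearly the whole summed level, and Myh1, Myh2, Myh3, Myh4 and Pvalb had 0 reads in at least 1 library. The other markers had reads in every library, such as Tnni2 with 16 to 56 and Mylpf with 13 to 41, and Myh3 reached 55 reads. The comparisons share samples. KO sham enters both the infarction comparison within knockouts and the genotype comparison after sham, and likewise for each other group, so they are not independent.

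The 7 genes were chosen by name, with the edgeR fold changes and adjusted p-values of these comparisons already known. Their fold changes are therefore given as descriptions with standard errors and without p-values. Levels are in CPM, reads per 1000000 reads assigned to genes, after TMM scaling, fold changes are on the log2 scale, and a gene is said to have passed where its edgeR adjusted p over all 13412 tested genes was under 0.05. For the 7 genes, passing again with a library left out shows only the dependence on single samples. It reuses the values known at the choice and is no independent support.

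Promoter windows were examined for the genes whose levels differed most, since Mylk3 on one side and Mylk4 and Ppp1r12b on the other followed different patterns across the groups. RefSeq windows of build GRCm38.p6, from 250 bases before to 50 bases after a transcript start, matched 6 of the 7 genes. The build of the deposited counts was GRCm39, so these positions are not those of the count table. The Mylk3 window shown, 1 of 2 for that gene, lies at chr8:85380992-85381291 on the minus strand, and that of Mylk4 at chr13:32783915-32784214 on the minus strand. Ppp1r12b has a window at an outer start, chr1:134955891-134956190, and another at an inner start, chr1:134803793-134804092, both on the minus strand. Capitals mark matches on either strand to the E-box CANNTG, the TATA box TATAAA, the M-CAT element CATTCC, the GATA element AGATAA, the NKX2-5 element AAGTG, the CArG box or the MEF2 box. An E-box that reads CAAGTG or CACTTG also contains the NKX2-5 letters, so those matches overlap.
Mylk3: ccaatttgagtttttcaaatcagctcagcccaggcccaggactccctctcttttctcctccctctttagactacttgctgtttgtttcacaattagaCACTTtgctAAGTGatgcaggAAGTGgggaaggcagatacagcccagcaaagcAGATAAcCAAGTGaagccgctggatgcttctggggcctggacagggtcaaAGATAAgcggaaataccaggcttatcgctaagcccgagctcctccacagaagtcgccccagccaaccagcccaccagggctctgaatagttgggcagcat
Mylk4: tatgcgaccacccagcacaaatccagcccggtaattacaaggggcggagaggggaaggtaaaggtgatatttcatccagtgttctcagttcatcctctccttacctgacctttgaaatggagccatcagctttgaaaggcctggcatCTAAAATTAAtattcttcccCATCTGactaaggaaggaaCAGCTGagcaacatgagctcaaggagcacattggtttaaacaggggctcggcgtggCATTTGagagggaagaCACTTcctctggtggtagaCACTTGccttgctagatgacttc
Ppp1r12b, outer start: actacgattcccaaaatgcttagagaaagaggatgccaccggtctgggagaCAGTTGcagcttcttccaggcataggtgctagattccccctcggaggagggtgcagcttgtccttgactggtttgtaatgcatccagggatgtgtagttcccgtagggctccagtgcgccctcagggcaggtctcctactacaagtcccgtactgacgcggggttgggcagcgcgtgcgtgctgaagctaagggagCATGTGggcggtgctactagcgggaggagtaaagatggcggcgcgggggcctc
Ppp1r12b, inner start: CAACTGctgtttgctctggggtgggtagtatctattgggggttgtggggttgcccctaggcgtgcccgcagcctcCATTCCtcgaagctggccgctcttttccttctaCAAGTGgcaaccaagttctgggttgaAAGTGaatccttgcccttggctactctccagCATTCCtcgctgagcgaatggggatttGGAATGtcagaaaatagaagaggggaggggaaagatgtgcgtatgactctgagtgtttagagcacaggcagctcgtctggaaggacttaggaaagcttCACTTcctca

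The Mylk3 window shown held 2 GATA elements, present in 11.2% of all 32851 promoter windows of this length, and the other Mylk3 window held 0, with 1 M-CAT element and no other motif searched. NKX2-5 elements, present in 46.4% of all windows, numbered 4 in the Mylk3 window shown, 2 in that of Mylk4 and 3 in the inner Ppp1r12b window, against 0 in the other Mylk3 window and the outer Ppp1r12b window. The Mylk4 window held 1 MEF2 box, present in 3.19% of all windows, and 4 E-boxes, a motif present in 72.3%, of which the Mylk3 window shown held 1 and the inner Ppp1r12b window 2. The inner Ppp1r12b window held 3 M-CAT elements, present in 14.7% of all windows, while the outer window held 2 E-boxes and none of the other motifs searched. No CArG box, present in 1.63% of all windows, and no TATA box, present in 13.6%, was found in these 4 windows. Each match is a description of letters in the sequence.

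Per kilobase of merged exons, Mylk3 was the most abundant member, with a mean of 127 CPM per kb over the 16 samples and a range of 85.2 to 171 CPM per kb. Ppp1cb followed with 16.7 CPM per kb, Ppp1r12a with 10.5, Ppp1r12b with 6.75, Mylk with 3.57, Mylk4 with 2.40 and Mylk2 with 0.145. Each gene was above the next in all 16 samples, except that Mylk was above Mylk4 in 13 of 16. The exceptions were KO sham samples 1, 2 and 4. In KO sham the means of this neighbouring pair were 3.95 for Mylk and 4.03 for Mylk4. With the length of the longest annotated transcript instead, the mean of Mylk3 was 106 CPM per kb in KO MI, 141 in KO sham, 154 in WT MI and 187 in WT sham. The choice of length moved some other genes more. In KO sham the mean of Ppp1cb went from 18.1 to 33.2 CPM per kb and that of Ppp1r12b from 9.31 to 15.8, while Mylk2 stayed at 0.119.

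**Figure D1:**
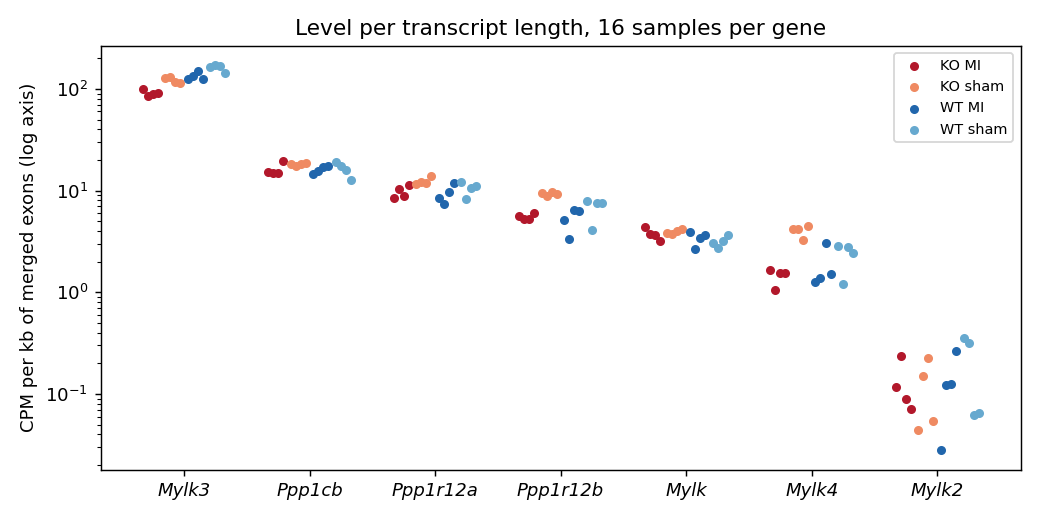
CPM per kilobase of merged exons (log axis) of the 7 genes in each of the 16 samples, coloured by group. Mylk3 lies between 85.2 and 171 CPM per kb and Mylk2 below 0.352 CPM per kb, with Mylk and Mylk4 overlapping.

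Among the 4 kinases, Mylk3 made up 95.2% ± 1.30 (SD, n = 16) of the summed level per kilobase, Mylk 2.83%, Mylk4 1.81% and Mylk2 0.110%. The share of Mylk3 lay between 92.9 and 94.2% in KO sham and between 95.9 and 97.6% in WT sham. The share of Mylk4 was 3.10% ± 0.419 in KO sham and 1.39% ± 0.467 in WT sham, with 1.49% ± 0.216 in KO MI and 1.27% ± 0.454 in WT MI (SD, n = 4 each). Among the targeting subunits, Ppp1r12c, which lies outside the 7 genes, made up 55.0% per kilobase, Ppp1r12a 27.5% and Ppp1r12b 17.5%. Ppp1cb supplied 6.16% of the catalytic subunit level, beside 76.0% for Ppp1ca and 17.9% for Ppp1cc, which also serve many other phosphatase complexes.

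Mylk3 (ENSMUSG00000031698, chromosome 8), the cardiac light chain kinase, was lower in knockouts than in wild types after either operation, and lower after infarction than after sham in knockouts. In KO MI its level was 427, 365, 384 and 393 CPM, against 542, 557, 500 and 492 CPM in KO sham. In WT MI it was 536, 567, 645 and 535 CPM, against 707, 733, 714 and 614 CPM in WT sham. Every KO MI sample was below every KO sham and every WT MI sample, and every KO sham sample was below every WT sham sample, whereas WT MI sample 3 lay above WT sham sample 4. The log2 fold change was -0.41 ± 0.09 (SE) for infarction in knockouts and -0.28 ± 0.09 in wild types. Between genotypes it was -0.54 ± 0.09 after infarction and -0.40 ± 0.09 after sham. The response in knockouts minus that in wild types was -0.14 ± 0.12 on the log2 scale.

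The infarction difference in knockouts and the genotype difference after sham of Mylk3 passed the threshold without any 1 of the 8 libraries compared. The genotype difference after infarction did not pass without KO MI sample 2, KO MI sample 3, WT MI sample 1 or WT MI sample 3, at -0.51, -0.53, -0.57 and -0.47. It kept a negative value in all 20 settings. The summed level of 12 cardiomyocyte markers was 83900 to 87380 CPM in KO sham and 91290 to 106600 CPM in WT sham. The two-sided exact permutation p was 0.0286, the smallest that 4 against 4 samples allow, and 0.089 after adjustment over 28 tests. The sum was 61370 to 90330 CPM in KO MI and 87120 to 93640 CPM in WT MI (exact permutation p = 0.0857, adjusted 0.15). Between KO MI and KO sham, where Mylk3 also differed, the sums overlapped, with means of 80700 and 85210 CPM (exact permutation, adjusted p = 0.893). No difference in this sum was under 0.05 after adjustment. Of these 12 markers 2 passed in KO sham against WT sham, both lower, and none was near 0. That is 16.7%, close to the 15.3% of all genes. Per 1000000 cardiomyocyte marker reads, Mylk3 read 4969 ± 967 in KO MI, 6138 ± 441 in KO sham, 6275 ± 435 in WT MI and 7008 ± 746 in WT sham (SD, n = 4 each). On that scale KO MI sample 4 read 6395 and the other 3 KO MI samples 4297 to 4725, so KO MI overlapped KO sham, at 5717 to 6642, and WT MI, at 5983 to 6920. KO sham overlapped WT sham, at 6110 to 7742. The log2 difference there was -0.19 between KO sham and WT sham, and -0.35 between KO MI and WT MI, both smaller than relative to all genes by over 1.5 times. For infarction in knockouts it was -0.32 there, against -0.41 relative to all genes. The part of cardiomyocyte content in the result was not tested further.

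Mylk4 (ENSMUSG00000044951, chromosome 13), a less studied member of the kinase family, was higher in KO sham than in the other 3 groups. It had 12.8, 8.14, 11.8 and 11.97 CPM in KO MI, against 32.4, 32.2, 24.9 and 34.5 CPM in KO sham. In WT MI it had 9.63, 10.6, 23.4 and 11.7 CPM, against 21.8, 9.35, 21.2 and 18.8 CPM in WT sham. All 4 KO sham samples were above every sample of the other 3 groups, and in wild types the groups overlapped. The log2 fold change was -1.47 ± 0.27 for infarction in knockouts and -0.37 ± 0.28 in wild types, and it was 0.81 ± 0.26 for KO sham against WT sham and -0.29 ± 0.28 for KO MI against WT MI. The response in knockouts minus that in wild types was -1.10 ± 0.38 on the log2 scale.

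The infarction difference of Mylk4 in knockouts passed in all 8 fits that left out 1 library, with -1.56 to -1.35. The genotype difference after sham was near the threshold: it passed in 1 of the 8 fits that left out 1 library, the fit without WT sham sample 1 at 0.92, and did not pass without any of the 4 KO sham samples or WT sham samples 2, 3 and 4, over a range of 0.59 to 0.92. Without WT MI sample 3 the difference between KO MI and WT MI was 0.08 in place of -0.29. Per 1000000 cardiomyocyte marker reads Mylk4 read 142 ± 40.7 in KO MI, 364 ± 54.5 in KO sham, 152 ± 67.4 in WT MI and 180 ± 60.5 in WT sham (SD, n = 4 each), so KO sham also stood highest on that scale.

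Mylk (ENSMUSG00000022836, chromosome 16), the kinase of smooth muscle and non-muscle cells, passed in none of the comparisons. Its level was 49.3, 42.5, 41.5 and 35.8 CPM in KO MI, and 43.0, 42.1, 45.4 and 47.7 CPM in KO sham. In WT MI it was 44.1, 29.8, 38.4 and 41.4 CPM, and 34.4, 30.6, 36.3 and 41.4 CPM in WT sham. All KO sham samples lay above all WT sham samples, by a narrow margin, and every other pair of groups compared overlapped. The log2 fold change was 0.32 ± 0.12 for KO sham against WT sham, 0.14 ± 0.12 for KO MI against WT MI, -0.07 ± 0.12 for infarction in knockouts and 0.10 ± 0.12 in wild types. The summed level of 10 smooth muscle markers was 1483 to 1727 CPM in KO sham and 1753 to 2181 CPM in WT sham (exact permutation p = 0.0286, adjusted 0.089). Of the 10, 4 passed, all lower in KO sham, which is 40% beside 15.3% of all genes. Acta2 alone averaged 681 CPM in KO sham and 968 CPM in WT sham, the larger part of that difference, while 3 of the 10 were higher in KO sham, among them Myh11 with 44.9 CPM in KO sham and 39.8 CPM in WT sham. Per 1000000 smooth muscle marker reads the log2 difference of Mylk between KO sham and WT sham was 0.65, on a sum in which Acta2 had the highest level of the 10. Reads from 2 genes annotated on the opposite strand, E130310I04Rik and Gm21691, cannot be told apart from Mylk reads, because the library kit does not mark strand. The same holds for Gm28892 opposite Ppp1r12b, and Gm43312 overlaps Ppp1cb on the same strand.

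**Figure D2:**
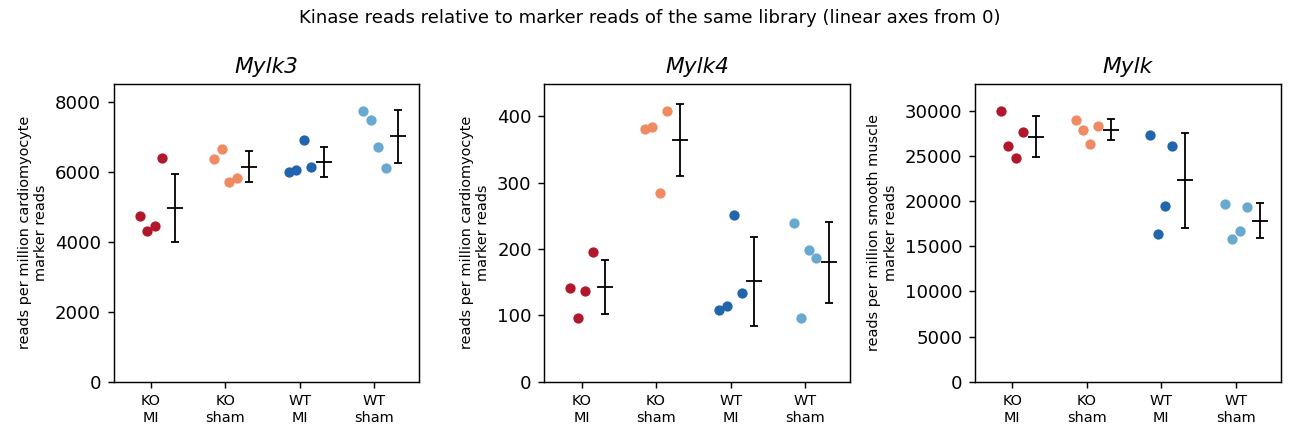
Reads of Mylk3 and Mylk4 per 1000000 cardiomyocyte marker reads, and of Mylk per 1000000 smooth muscle marker reads (linear axes), by sample, with mean ± SD of 4 samples per group. Mylk3 averages 4969 in KO MI and 7008 in WT sham, and Mylk4 averages 364 in KO sham against 180 in WT sham.

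Mylk2 (ENSMUSG00000027470, chromosome 2), the skeletal muscle kinase, had 5, 10, 4 and 3 reads in KO MI and 2, 6, 9 and 2 reads in KO sham. It had 1, 6, 4 and 9 reads in WT MI and 12, 12, 2 and 2 reads in WT sham. A floor of 3 reads corresponded to 0.179 to 0.290 CPM, and the gene did not enter the fit, so no difference in Mylk2 was detectable at this depth.

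**Figure D3:**
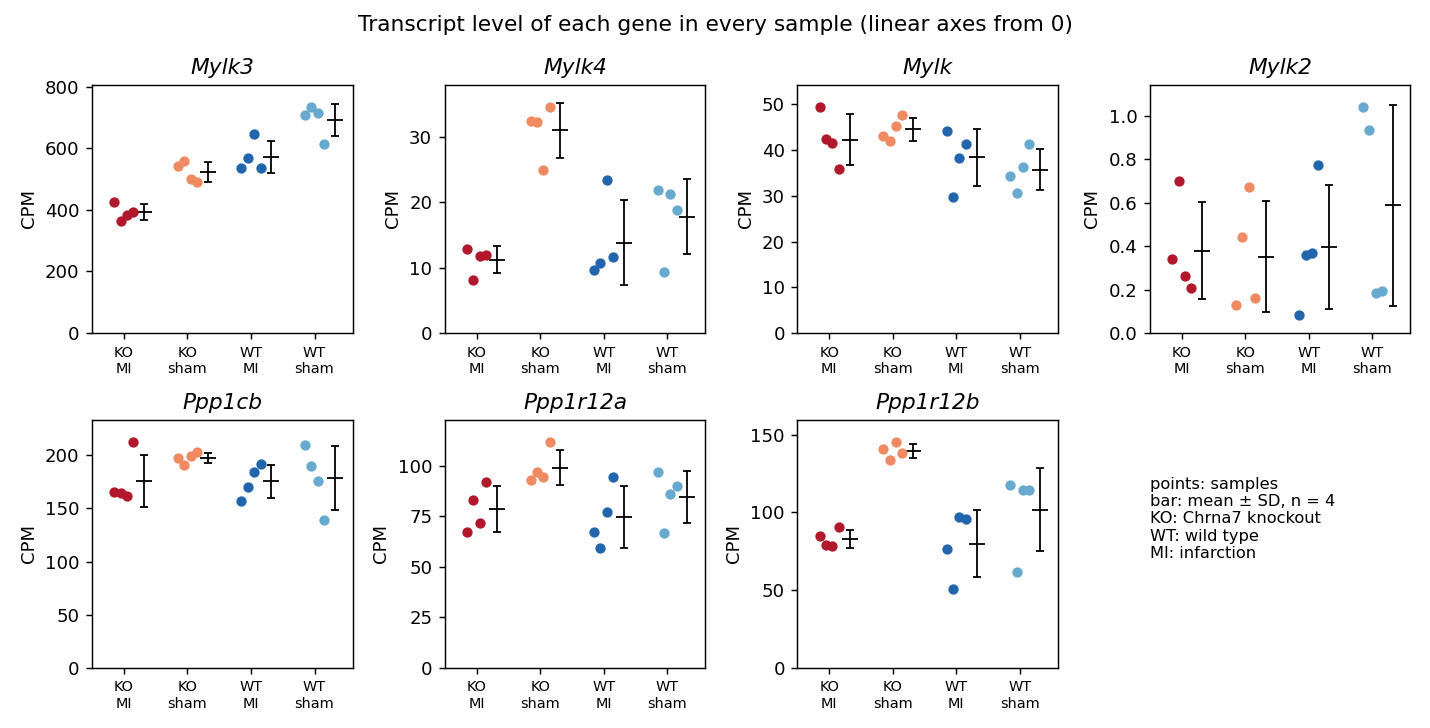
CPM of each of the 7 genes in every sample of KO MI, KO sham, WT MI and WT sham (linear axes from 0), with mean ± SD of 4 samples. Mylk3 averages 392 CPM in KO MI and 692 CPM in WT sham, and Mylk4 averages 31.0 CPM in KO sham against 17.8 CPM in WT sham.

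Ppp1r12b (ENSMUSG00000073557, chromosome 1), the targeting subunit known as MYPT2 and found mainly in heart and other striated muscle, was lower after infarction in knockouts. It had 84.5, 79.0, 78.3 and 90.6 CPM in KO MI, against 141, 134, 145 and 138 CPM in KO sham. In WT MI it had 76.7, 50.6, 97.1 and 95.4 CPM, against 117, 61.7, 114 and 114 CPM in WT sham. The KO sham samples were above all other samples, and the wild-type groups overlapped because WT sham sample 2 lay below 3 of the WT MI samples. The log2 fold change was -0.75 ± 0.19 for infarction in knockouts, -0.35 ± 0.19 in wild types, 0.46 ± 0.19 for KO sham against WT sham and 0.06 ± 0.19 for KO MI against WT MI. The infarction difference in knockouts passed without any 1 library, at -0.80 to -0.72. With the trends of each library in transcript length and GC content removed, it was -0.54 and still passed; the gene has 14983 bases of merged exons, the longest of the 7.

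Ppp1r12a (ENSMUSG00000019907, chromosome 10), the targeting subunit MYPT1 of smooth muscle and many other cells, had 67.3 to 92.0 CPM in KO MI, against 92.6 to 112 CPM in KO sham. It had 59.0 to 94.4 CPM in WT MI, against 66.6 to 96.7 CPM in WT sham. The knockout groups did not overlap, at a log2 fold change of -0.33 ± 0.13 that did not pass, and -0.21 with length and GC trends removed. In wild types the fold change was -0.19 ± 0.14, and between genotypes it was 0.22 ± 0.13 after sham and 0.08 ± 0.14 after infarction.

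Ppp1cb (ENSMUSG00000014956, chromosome 5), the catalytic subunit of the complex, had 165, 164, 162 and 212 CPM in KO MI and 197, 191, 199 and 203 CPM in KO sham. In WT MI it had 157 to 192 CPM, and 139 to 210 CPM in WT sham. All groups compared overlapped. The log2 fold change was -0.17 ± 0.11 for infarction in knockouts and -0.02 ± 0.11 in wild types. Between genotypes it was 0.15 ± 0.11 after sham and 0.00 ± 0.11 after infarction.

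Counting over the 6 fitted genes, 3 passed for infarction in knockouts (Mylk3, Mylk4 and Ppp1r12b), all lower in KO MI, where 16.6% of all genes passed, 8.54% as higher and 8.02% as lower. Samples did not overlap for 4 of the 6, against 23.9% of all genes. For infarction in wild types edgeR passed 0 of the 6, while 2.25% of all genes passed. There 1 of the 6 had an unadjusted p under 0.05, DESeq2 passed 1, and 0 of the 6 separated without overlap, against 8.22% of all genes. For KO MI against WT MI only Mylk3 passed, lower in KO MI, where 0.0149% of all genes passed, 0.00746% in each direction, and it was also the only member of the 6 whose samples did not overlap, against 2.11% of all genes. For KO sham against WT sham 2 passed, Mylk3 lower and Mylk4 higher in KO sham, where 15.3% of all genes passed, 7.6% as higher and 7.74% as lower, and 4 of the 6 did not overlap, against 26.3% of all genes. For the difference between the responses to infarction edgeR passed 0 of the 6 and 2.74% of all genes, with 1 of the 6 at an unadjusted p under 0.05 and 1 by DESeq2. Nothing is read from these counts, since the genes were chosen with the contrasts known. The median log2 fold change of the 6 was -0.37 for infarction in knockouts and -0.23 in wild types, beside 0.01 and -0.01 over all genes.

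**Figure D4:**
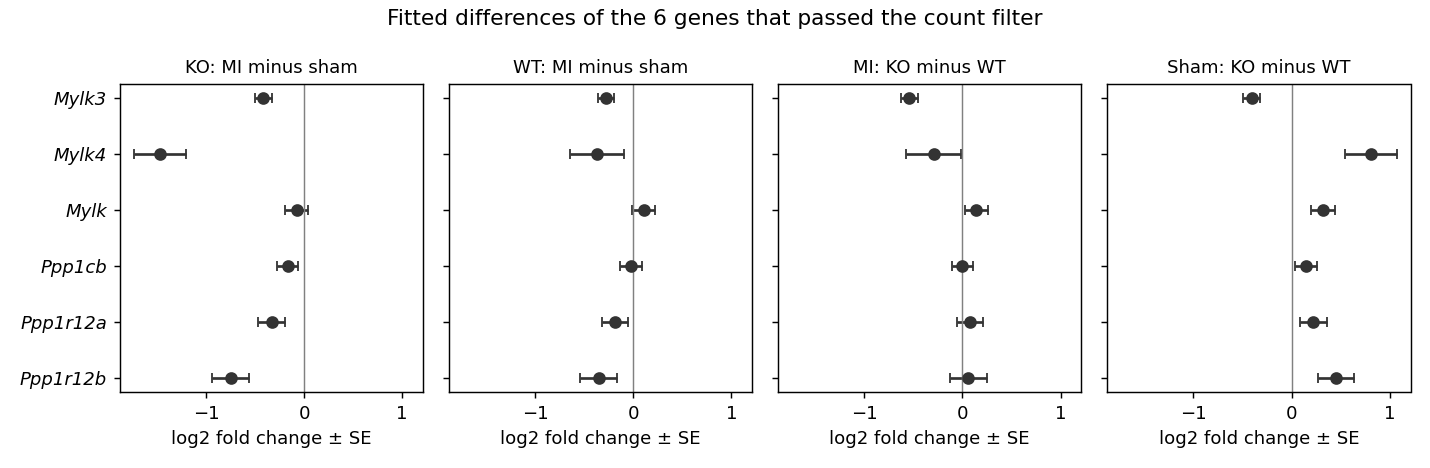
Log2 fold changes ± SE of the 6 fitted genes, in panels for infarction against sham in knockouts and in wild types and for knockout against wild type after infarction and after sham. Mylk3 is below 0 in all 4 panels, while Mylk4 is at -1.47 for infarction in knockouts and at 0.81 for KO sham against WT sham.

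The substrates and regulators of the cycle were read from 6 lists holding 64 genes of the table, of which 60 were tested. For infarction in knockouts 16 of the 60 passed, 6 higher and 10 lower in KO MI, which is 26.7% beside 16.6% of all genes. For KO sham against WT sham 15 passed, 6 higher and 9 lower in KO sham, which is 25% beside 15.3%. For infarction in wild types 1 passed, which is 1.67% beside 2.25% of all genes. For KO MI against WT MI edgeR and DESeq2 passed 0, with 0 at an unadjusted p under 0.05. There edgeR passed only 0.0149% of all genes. The median log2 fold change of the 60 was -0.05 for infarction in knockouts and -0.05 for KO sham against WT sham, beside 0.01 and -0.01 over all genes.

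Among the regulatory light chains, the substrates of the kinases, 1 of 5 tested passed for infarction in knockouts, higher in KO MI. That is 20% beside 16.6% of all genes. For KO sham against WT sham 2 of 5 passed, both lower in KO sham, which is 40% beside 15.3%. Myl9, the light chain of smooth muscle and non-muscle myosin, had 260, 370, 270 and 380 CPM in KO MI, against 132, 143, 167 and 149 CPM in KO sham. It had 355, 471, 254 and 338 CPM in WT MI, against 362, 422, 444 and 325 CPM in WT sham. The KO sham samples were below all 12 others. Myl9 rose by 1.12 ± 0.16 (SE) on the log2 scale with infarction in knockouts (edgeR adjusted p = 0.000358) and was lower in KO sham than in WT sham, at -1.40 ± 0.16 (edgeR adjusted p = 2.78e-05). The difference between the responses was 1.25 (edgeR adjusted p = 0.00618), and it passed in all 16 fits that left out 1 library. Smooth muscle markers had fold changes in both directions. For infarction in knockouts 3 of 10 passed as higher and 1 as lower, which is 40% beside 16.6% of all genes. For KO sham against WT sham 4 of 10 passed, all lower in KO sham, which is 40% beside 15.3%. Tagln averaged 78.0 CPM in KO MI, against 45.0 CPM in KO sham, and 82.4 CPM in WT MI, against 81.8 CPM in WT sham. It was 1 of only 3 of the 10 with a positive fold change for infarction in knockouts. The rest were lower in KO MI, among them Acta2, with 622 CPM against 681 CPM in KO sham, and Myh11, with 38.8 against 44.9 CPM. The summed level of the 10 was 1293 to 1682 CPM in KO MI, against 1483 to 1727 CPM in KO sham, and their part in the Myl9 result was not tested.

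Myl7, the atrial light chain, was lower in KO sham than in WT sham, at -2.28 ± 0.53 (edgeR adjusted p = 0.0132), with 68.0 to 125 CPM in KO sham and 215 to 766 CPM in WT sham. Without the 3 libraries low in Y-linked reads it was at -1.75 and did not pass. It is 1 of 5 atrial markers, whose summed level, Myl7 included, was 288 to 624 CPM in KO sham and 722 to 3331 CPM in WT sham. Within that sum Nppa averaged 223 CPM in KO sham and 1124 CPM in WT sham. Of the 5, Myl7 among them, 4 passed as lower in KO sham, which is 80% beside 15.3% of all genes, 7.74% as lower. The part of atrial tissue in the samples was not tested. Myl2, the ventricular light chain and the main target of the cardiac kinase, averaged 8803 ± 651 CPM in KO MI, 8052 ± 331 CPM in KO sham, 8257 ± 411 CPM in WT MI and 9986 ± 2079 CPM in WT sham (SD, n = 4 each). Its fold change was 0.13 ± 0.12 for infarction in knockouts and -0.31 ± 0.12 for KO sham against WT sham (edgeR adjusted p = 0.473 and 0.0737). Myl10 had at most 1 read. Myl12b was listed at 0 under both of its IDs, which need not mean that its transcript was absent, and the reason was not tested.

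Of 7 myosin heavy chains, 0 passed for infarction in knockouts, beside 16.6% of all genes. For KO sham against WT sham 2 passed, which is 28.6% beside 15.3%. Myh14, a non-muscle heavy chain, averaged 91.6 ± 4.68 CPM in KO sham and 50.8 ± 9.83 CPM in WT sham, a log2 fold change of 0.85 ± 0.21 (edgeR adjusted p = 0.0122). Myh7, the slow heavy chain that prevails in the fetal ventricle, averaged 415 ± 23.0 CPM in KO sham and 682 ± 141 CPM in WT sham, a log2 fold change of -0.72 ± 0.17 (edgeR adjusted p = 0.00936; SD, n = 4 each), and did not pass without the 3 libraries low in Y-linked reads, at -0.64.

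Of 10 tested partners and inhibitors of the phosphatase, 3 passed for infarction in knockouts, which is 30% beside 16.6% of all genes. Ppp1r14b, an inhibitor of the phosphatase, rose by 0.45 ± 0.10 on the log2 scale (edgeR adjusted p = 0.00732), and did not pass without the 3 libraries low in Y-linked reads, at 0.41. Ppp1r14c, another inhibitor of the same family, fell by 0.41 on the log2 scale, to 185 CPM in KO MI, against 245 CPM in KO sham (edgeR adjusted p = 0.00505). Prkg1, the kinase activated by cyclic GMP that relieves inhibition of the phosphatase, was at -0.62 ± 0.20 (edgeR adjusted p = 0.0413) and passed in 1 of the 8 fits that left out 1 library, the exception being the fit without KO MI sample 4. It did not pass with upper quartile scaling, with no filter or without the 3 libraries low in Y-linked reads.

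After sham, Ppp1r1a, an inhibitor of the catalytic subunits, averaged 6.19 ± 0.267 CPM in knockouts and 13.9 ± 1.19 CPM in wild types, a log2 fold change of -1.16 ± 0.18 (edgeR adjusted p = 0.000279). Its difference between the responses to infarction was 0.95 (edgeR adjusted p = 0.0437), but passed in 4 of 16 fits that left out 1 library, those without KO MI sample 4, WT MI sample 2, WT MI sample 3 or WT sham sample 2. It did not pass without the 3 libraries low in Y-linked reads, at 0.77, or with length and GC trends removed, at 0.75. Prkg1 was higher in KO sham than in WT sham, at 0.68 ± 0.21 (edgeR adjusted p = 0.0321), and passed in 1 of 8 such fits, without WT sham sample 1. Among the other subunits, Ppp1ca was at 0.17 ± 0.08 for infarction in knockouts and -0.16 ± 0.08 for KO sham against WT sham, Ppp1cc at 0.09 ± 0.09 and -0.11 ± 0.09, and Ppp1r12c at -0.16 ± 0.08 and 0.10 ± 0.08. None of these passed, nor did Ppp1r14a, the inhibitor CPI-17 of smooth muscle, at 0.15 ± 0.12 and -0.05 ± 0.12.

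Rock1, a kinase that inhibits the phosphatase, had 61.1, 55.0, 58.6 and 52.0 CPM in KO MI, against 84.5, 77.0, 71.9 and 85.0 CPM in KO sham. In WT MI it had 58.7, 51.6, 65.9 and 66.4 CPM, against 68.8, 57.9, 52.7 and 56.3 CPM in WT sham. The KO sham samples were above all others, and the wild-type groups overlapped. Rock1 fell by 0.49 on the log2 scale with infarction in knockouts (edgeR adjusted p = 0.00286), and was at 0.04 ± 0.10 in wild types. With length and GC trends removed it was at -0.30 in knockouts and still passed. The difference between the responses was -0.53 (edgeR adjusted p = 0.0427) and passed in 5 of 16 fits that left out 1 library, those without KO MI sample 1, KO MI sample 4, KO sham sample 3, WT MI sample 2 or WT sham sample 1. With length and GC trends removed that difference was -0.35 and did not pass.

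Rock2, the other ROCK kinase, was at -0.45 ± 0.13 for infarction in knockouts (edgeR adjusted p = 0.0223) and passed in 3 of 8 fits that left out 1 library, those without KO MI sample 4, KO sham sample 2 or KO sham sample 3, and not without the 3 libraries low in Y-linked reads. Arhgef12, an exchange factor that activates RhoA, fell by 0.64 on the log2 scale in knockouts (edgeR adjusted p = 0.00966). With length and GC trends removed Rock2 was at -0.25 and Arhgef12 at -0.41, and both passed. Pak1, a kinase activated by Rac and Cdc42, rose by 1.25 ± 0.32 at a low level, with 2.76 CPM in KO MI against 1.15 CPM in KO sham (edgeR adjusted p = 0.0121), and Ilk, the integrin-linked kinase, rose by 0.31 ± 0.09 (edgeR adjusted p = 0.0209). The call for Ilk was lost without KO MI sample 2, KO sham sample 1 or KO sham sample 2, without the 3 libraries low in Y-linked reads (0.30), and with length and GC trends removed (0.17). Rhoa itself was at 0.10 ± 0.07 and did not pass.

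For KO sham against WT sham Rock1 was at 0.43 ± 0.10 (edgeR adjusted p = 0.00592) and Arhgef12 at 0.58 ± 0.15 (edgeR adjusted p = 0.0163), both higher in KO sham. With length and GC trends removed Rock1 was at 0.22 and did not pass, and without WT sham sample 2 Arhgef12 was at 0.43 and did not pass. Arhgef2, a further exchange factor, was at 0.24 ± 0.08 and passed in 1 of 8 fits that left out 1 library, without WT sham sample 4, and neither with no filter nor without the 3 libraries low in Y-linked reads, while Ilk was lower at -0.44 ± 0.09 (edgeR adjusted p = 0.00223). Rock2 was at 0.34 ± 0.13 and Rhoa at -0.08 ± 0.07, and neither passed.

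Of 10 calmodulin and calmodulin-dependent kinase genes, 2 passed for infarction in knockouts, which is 20% beside 16.6% of all genes. Camk2d, the main such kinase of heart muscle, fell by 0.38 on the log2 scale, to 110.4 ± 5.128 CPM in KO MI, against 143.5 ± 2.001 CPM in KO sham (edgeR adjusted p = 0.00217; SD, n = 4 each), and Camk2g fell by 0.30 (edgeR adjusted p = 0.0147), but did not pass without the 3 libraries low in Y-linked reads, at -0.27. Camk2a, Camk1 and Pnck were lower in KO sham than in WT sham, at -0.37 ± 0.12, -0.30 ± 0.09 and -0.46 ± 0.13, but passed in 2, 2 and 4 of 8 fits that left out 1 library. Camk2a passed without WT sham sample 1 or 2, Camk1 without KO sham sample 1 or WT sham sample 1, and Pnck without KO sham sample 1 or 2 or WT sham sample 1 or 4. Without the 3 libraries low in Y-linked reads Camk2a and Pnck did not pass, and with length and GC trends removed Camk1, at -0.21, and Pnck, at -0.29, did not. Camk2a was also the gene that passed for infarction in wild types, at -0.47 ± 0.12 (edgeR adjusted p = 0.0349), in 3 of 8 such fits, those without WT MI sample 3, WT MI sample 4 or WT sham sample 2, and neither in the fit of the 8 samples compared nor without the 3 libraries low in Y-linked reads. Of 6 related muscle proteins with a kinase domain, Ttn, the giant spring protein titin, fell by 0.50 on the log2 scale with infarction in knockouts (edgeR adjusted p = 0.00812), and Trio was at -0.46 ± 0.13, passing in 3 of 8 fits, those without KO MI sample 1, KO MI sample 4 or KO sham sample 2. With length and GC trends removed Trio was at -0.23 and did not pass, nor did it pass without the 3 libraries low in Y-linked reads.

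**Figure D5:**
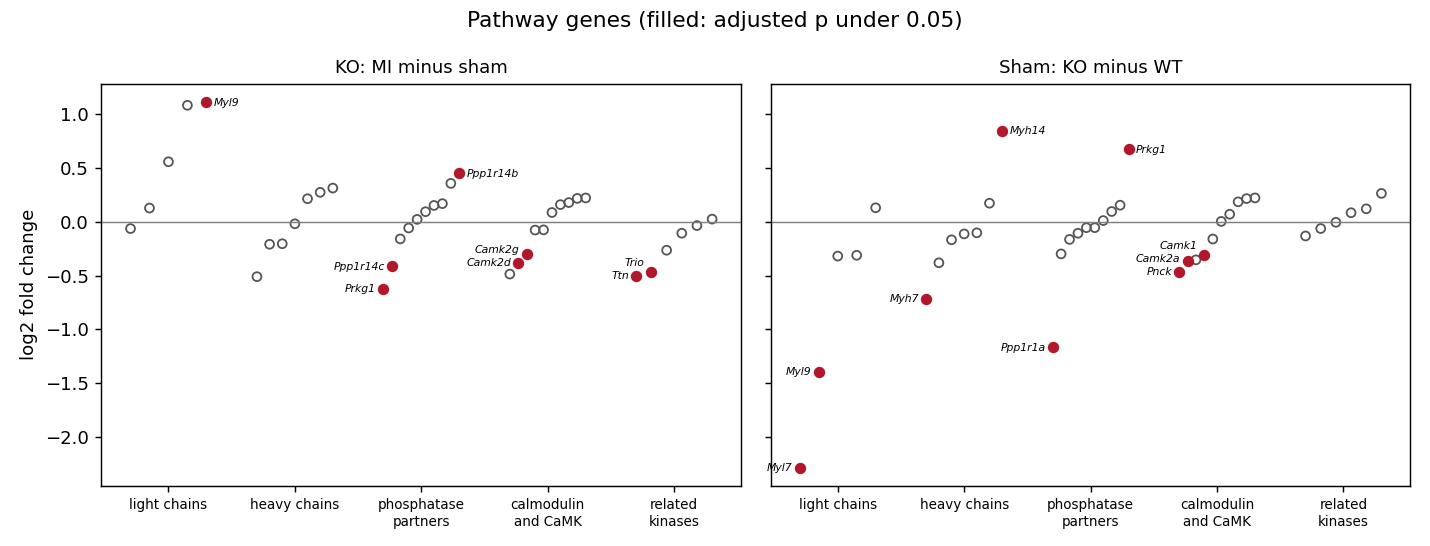
Log2 fold changes of 38 tested pathway genes in 5 lists, for infarction against sham in knockouts (left) and KO sham against WT sham (right), with filled points where the adjusted p was under 0.05. Myl9 is at 1.12 on the left and at -1.40 on the right, and Ppp1r1a is at -1.16 on the right.

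Across the 16 samples, the levels of Ppp1r12b correlated with those of Ppp1r12a at r = 0.871 and of Mylk4 at r = 0.867 (Pearson, log2 CPM), and within groups at 0.775 and 0.704. Mylk3 correlated with Mylk4 at 0.315 and with Ppp1r12b at 0.102, and Mylk with Mylk3 at -0.503. These are descriptions over samples that share the group structure, library depth and the length trend of each library. Candidates were the 8922 tested genes averaging 10 CPM or more, and those most like Ppp1r12b were Tead1 (0.986), Akap13 (0.977) and Trio (0.976), at 0.963 to 0.978 within groups. Those most like Mylk4 were Cpeb3 (0.957), Dip2c (0.944) and Pou6f1 (0.934), at 0.833 to 0.863 within groups. Those most like Mylk3 were Adcy5 (0.838), Maob (0.833) and Zkscan5 (0.823), and within groups these were 0.205, 0.532 and 0.136. The nearest genes were Phip, Aak1 and Gnl3l for Ppp1r12a (0.940 to 0.945), Snx14, Dld and Yme1l1 for Ppp1cb (0.888 to 0.906), and Map4k2, Zfp217 and Fat4 for Mylk (0.854 to 0.861).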

How the data were processed

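The authors deposited unnormalised read counts per Ensembl gene, from messenger RNA of 16 ventricle samples. Per the submitters' processing notes, reads were handled with HISAT2 2.2.1, HTSeq 0.13.5, cutadapt 3.4, bcl2fastq 2.17, DESeq2 and FastQC, and the genome build was GRCm39. Their order, the strand setting and the annotation release are not given in the sources used here. Per the labels' protocols the kit was NEBNext Ultra RNA, which does not mark strand. Lines of unassigned reads (no feature 23.7 to 28.3%, ambiguous 1.56 to 2.08% of reads in the table) were left out.

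Groups came from the labels. Library totals were scaled by TMM, and filterByExpr kept 13412 genes. The 16 samples entered a single quasi-likelihood model (edgeR 4.0.16 under R 4.3.3, robust option) in which each group had its own mean, leaving 12 residual degrees of freedom. P-values were two-sided and Benjamini-Hochberg adjusted over all tested genes, with a threshold of 0.05. The fit was tested on simulated data. Exon lengths came from a GENCODE annotation of GRCm38, an older build than that of the counts, so lengths are approximate. Alternatives included DESeq2 1.42.0, limma 3.58.1, other scalings and filters, a replicate block, length and GC correction, and leaving out libraries. No pair of libraries of the same group agreed within sampling noise by a chi-square test of their counts.

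The members, gene lists and rule for named genes were chosen with earlier results of these data known. The rule named all 7 members, every called gene of a list with up to 4 calls in a contrast and otherwise the 4 with the smallest p, 10 fixed genes, and the 3 genes most correlated with each member. Cell type marker lists were cardiomyocyte, smooth muscle, skeletal muscle, atrial, fibroblast, endothelial and macrophage. Counts for 1 of the 6 pathway lists are not reported here.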

Additional observations from a re-analysis of the deposited data

Results flagged for a closer look

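Mylk4 in WT MI sample 3 had 23.4 CPM, while the other WT MI samples had 9.63 to 11.7 CPM, a gap large enough to pass Dixon's test at 95%. Ppp1r12b in WT sham sample 2 had 61.7 CPM, while the other WT sham samples had 114 to 117 CPM. Ppp1cb in KO MI sample 4 had 212 CPM, while the other KO MI samples had 162 to 165 CPM. Of 28 gene and group combinations 3 stood out in this way, and chance gives about 1 in 20.

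Among the pathway genes, the response to infarction in knockouts minus that in wild types passed edgeR's test for Myl9 at 1.25 on the log2 scale, for Ppp1r1a at 0.95 and for Rock1 at -0.53. That is 5% of the 60 tested, beside 2.74% of all genes.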

How the results depend on the processing

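Of the fold changes of the 7 genes recomputed under the alternatives, 8 of 627 moved by more than the spread between replicates, 5 of them relative to summed markers, and no called value changed sign. The group mean levels of the 7 genes per kilobase were recomputed with the longest transcript or another scaling. Of these levels 23 of 56 moved by more than the SD of their group. Of 1538 refitted fold changes of the pathway genes, 146 lost and 9 gained a call. Part of the 1538 had no call in the main fit to lose, so this is not the share of calls lost. In every fit that left out 1 library, 9 of 16 calls held for infarction in knockouts and 7 of 15 for KO sham against WT sham. For infarction in wild types 0 of 1 held, and for the interaction 1 of 3. Without the 3 libraries with almost no Y-linked reads (KO MI sample 1, KO sham sample 2 and WT sham sample 1) the pathway count for infarction in knockouts was 7, that in wild types 0, and 0 members passed for KO MI against WT MI and 1 for KO sham against WT sham. Of all genes, 9.59%, 1.23%, 0.00743% and 9.19% passed there, in the same order of comparisons. Without KO MI sample 4, WT MI sample 2 and WT sham sample 2 together, chosen after seeing the data, 5 members passed for infarction in knockouts, 1 in wild types and 1 for the interaction, and 25, 3 and 13 pathway genes. The calls over all genes rose as well, to 29.6%, 4.17% and 10.7%, against 16.6%, 2.25% and 2.74% in the main fit. With DESeq2, 1 member and 4 pathway genes passed for infarction in wild types, and 1 member and 6 pathway genes for the interaction, beside 3.48% and 5.03% of all genes. With length and GC correction 1 member and 3 pathway genes passed for infarction in wild types, and 1 member for KO sham against WT sham, as also with no filter. Of all genes 3.82% and 15.9% passed with that correction, and 10.2% with no filter for KO sham against WT sham. In the fit of the 8 samples compared, 0 members passed for KO MI against WT MI, where 0.00759% of all genes passed. The causes were not tested.

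Leaving out each library in turn gave 3 to 4 members and 10 to 20 pathway genes for infarction in knockouts, 0 to 1 and 0 to 3 in wild types, 0 to 1 members for KO MI against WT MI, 1 to 2 members and 8 to 17 pathway genes for KO sham against WT sham, and 0 members and 1 to 5 pathway genes for the interaction. In the same order, 9.1 to 21.7%, 0.637 to 2.85%, 0.0074 to 0.0296%, 9.59 to 15.4% and 1.32 to 6.04% of all genes passed in those fits. Samples with the same replicate number deviated together little in the median (correlation 0.011, range -0.097 to 0.475 over 24 pairs, against a median of -0.006 for other numbers). This median cannot exclude a pairing that the labels leave unstated. With a replicate block the counts were 4 members and 17 pathway genes for infarction in knockouts, 0 and 1 in wild types, 1 and 0 for KO MI against WT MI, 3 and 15 for KO sham against WT sham, and 0 and 4 for the interaction. The block fit passed 18%, 2.21%, 0.0224%, 16.4% and 2.61% of all genes, in the same order. The p-values rest on 4 samples a group, and Mylk2 lies near the counting floor.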

Other observations

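Markers of other cell types also differed between the groups. The summed level of 8 macrophage markers was 201 to 442 CPM in KO MI, against 140 to 154 CPM in KO sham, and 166 to 257 CPM in WT MI, against 110 to 131 CPM in WT sham. The samples did not overlap in either genotype (two-sided exact permutation p = 0.0286 for each, 0.089 after adjustment over 28 tests). By edgeR 6 of 8 markers passed as higher in knockouts, which is 75% beside 16.6% of all genes. In wild types 3 of 8 did, which is 37.5% beside 2.25%. Among the macrophage markers, Lyz2, a lysozyme of myeloid cells, averaged 109 CPM in KO MI and 33.0 CPM in KO sham, and 61.6 CPM in WT MI and 23.1 CPM in WT sham.

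Summed endothelial markers were 1557 to 1638 CPM in KO sham and 1318 to 1446 CPM in WT sham (exact permutation p = 0.0286, adjusted 0.089). Of the 6, 5 had a positive fold change and 2 passed, which is 33.3% beside 15.3% of all genes. Summed fibroblast markers overlapped, with 6341 to 6691 CPM in KO sham and 6437 to 7392 CPM in WT sham (exact permutation p = 0.286, adjusted 0.4). Summed skeletal muscle markers, nearly all Ckm, were 2629 to 2919 CPM in KO MI and 2245 to 2609 CPM in KO sham (exact permutation p = 0.0286, adjusted 0.089). The part of these cell types in the levels of the kinase and phosphatase genes was not tested.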
